A study of Mus musculus with 12 samples.

Results

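The 4 mouse nuclear factor I genes (Nfia, Nfib, Nfic and Nfix) and Zbtb20 were followed in adherent neural stem (ANS) cells that were carried from proliferation into inhibitory neuronal differentiation. The 5 genes were taken by symbol out of 22609 genes with a read count and 34993 gene identifiers with an FPKM value, and all 5 were found in both kinds of table and passed the low-count filter in every comparison. The NFI genes were taken as a whole family, whereas Zbtb20 was selected on its spread between libraries, so its levels are described without a test. ANS cells are neural stem cells grown as a monolayer, here taken from the brain of normal mouse embryos at E14.5, and no group carried a genetic modification according to the labels.

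The libraries were made from polyadenylated RNA of whole cultures at 4 time points. At T0 (3 libraries, numbered 1, 2 and 3) the cells proliferated in growth medium with FGF2 and EGF. At T1 (3 libraries, numbered 1, 2 and 3) they had spent 2 days in medium D1, which contains less of both growth factors. At T2 (4 libraries, numbered 1 to 4) the cells had passed through medium D1 and spent 2 days in medium B, which contains FGF-2 and BDNF, on laminin. At T3 (2 libraries, numbered 1 and 4) they were in medium B for 10 days. These durations are those of the sample titles. The growth protocol gives 3 days for each medium, and the results section of the paper counts the T3 period from T2. The submitters call the samples biological replicates without saying whether they came from separate derivations, so p-values measure the spread between these cultures. In bulk RNA, fewer cells expressing a gene and less RNA per cell cannot be told apart.

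NFI proteins are transcription factors that bind DNA as dimers through a conserved domain at their amino end and recognise a palindrome made of TTGGC and its reverse complement. In the embryonic nervous system Nfia and Nfib are required for the onset of gliogenesis, Nfia acts together with Sox9 on early astrocyte genes, and Nfix takes part in the switch from proliferating to quiescent neural stem cells. Nfic is best known for its role in tooth root formation. Zbtb20 is a zinc finger repressor of the BTB family with roles in hippocampal identity, in cortical layer formation and in astrocyte formation.

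On the mm9 assembly Nfia lies on the plus strand of chromosome 4 at chr4:97439425-97868605. Nfib lies on the minus strand of the same chromosome at chr4:81936077-82351654. Nfic is the most compact member, on the minus strand at chr10:80858931-80893750, and Nfix is on the minus strand at chr8:87223775-87324243. Zbtb20 is the longest, on the plus strand at chr16:42875994-43642715, with 28 merged exons that add up to 30730 bases. Its last exon contains the hairpin of Mir568 on the same strand, at chr16:43640768-43640850.

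A short sequence is shown for the site type that NFI proteins recognise, because it occurs in the promoter of a gene whose level is given below. RefSeq promoters on GRCm38.p6, which span 300 bases around each start site, were searched on both strands for TTGGCNNNNNGCC, an NFI palindrome of which one side is complete and the other side is cut short. This motif was present in 1.38% of 32851 promoters. It was found in 1 of the 11 promoters available for the NFI target list, that of Fabp7, and in none of the 7 promoters available for 4 of the members. The shorter element TTGGC or its reverse complement was in 46.7% of all promoters and in 3 of those 7. The Fabp7 match is at chr10:57784860-57784888 on the plus strand, and its first motif base is 55 bases upstream of the start site. Capitals mark the letters of the motif. A match is a description of the letters in this window and not a measured binding site.
Fabp7 promoter: tcaaatgaTTGGCtttttGCCcgcttctt

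A second sequence is shown because reads at its locus are compared with those of its host gene Zbtb20 below. The mature miRNA of the Mir568 hairpin is listed by RefSeq at chr16:43640665-43640684 of GRCm38.p6 on the plus strand, and capitals mark its seed (bases 2 to 8).
mmu-miR-568: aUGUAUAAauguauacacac

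Between 8910724 and 16631614 reads per library were assigned to genes, with a median of 12601169. Reads outside annotated exons made up 13.3% to 24.06% of the uniquely aligned reads, with the lowest value in T0 replicate 3. This library stood apart from the other T0 libraries in glial genes and in some others. Gfap, an intermediate filament of astrocytes, had 1958, 2144 and 7 reads in T0 replicates 1, 2 and 3, and Aqp4, the water channel of astrocyte endfeet, had 88.0, 91.4 and 7.69 CPM (read counts scaled to a common library size, with library sizes scaled by the trimmed mean of M-values). In the same order, the progenitor gene Nes had 849.7, 968.3 and 1813.7 CPM and the neuronal tubulin gene Tubb3 had 32.3, 33.7 and 10.7 CPM. The progenitor gene Vim, with 3781.2, 3044.8 and 3106.6 CPM, did not set this library apart. The summed level of the 20 astrocyte markers ranged from 5372.7 to 8644.4 CPM over the T0 libraries. Neural progenitor markers were high in every library (summed level of 10 genes, 5704.3 to 7840.9 CPM), and the 9 microglial markers never exceeded 3 reads. The NFI genes, the list counts and the leading genes of each list are therefore compared with T0 both with and without T0 replicate 3.

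**Figure D1:**
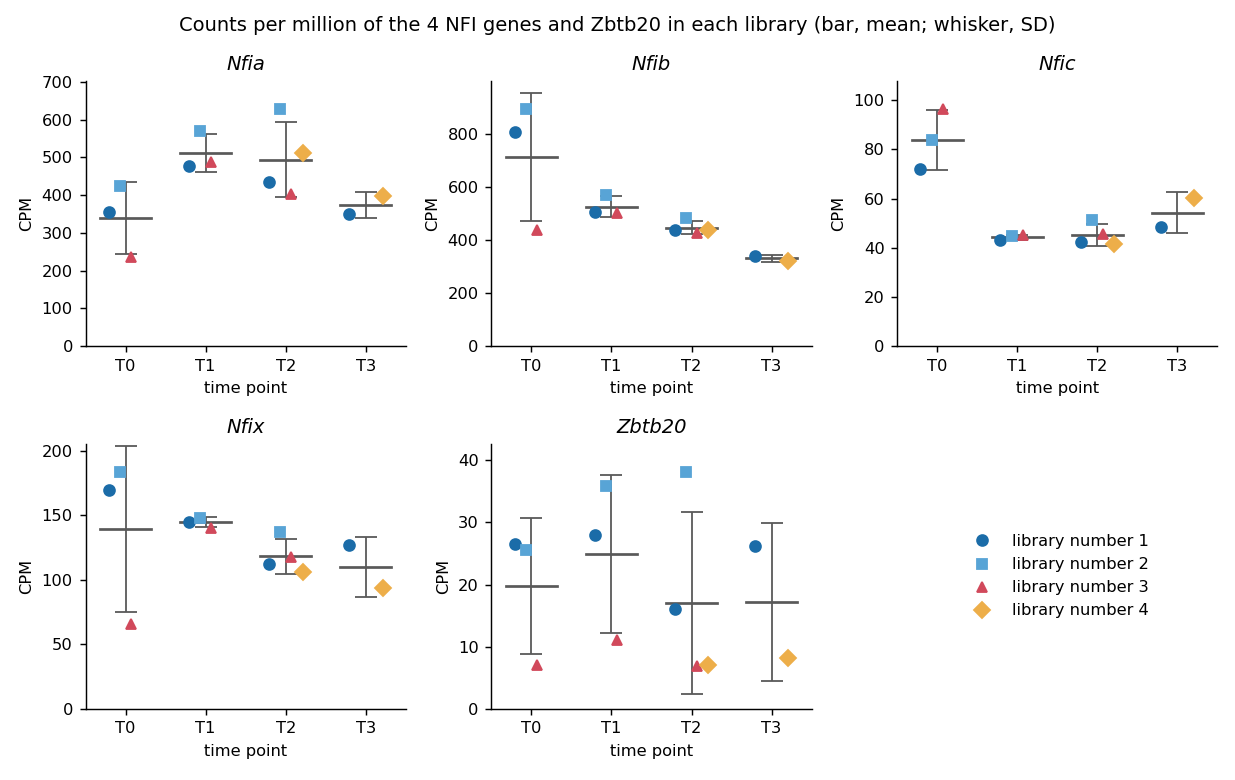
CPM (vertical axis, from 0) of Nfia, Nfib, Nfic, Nfix and Zbtb20 in the 12 libraries, by time point (horizontal axis); symbols and colours give the library number, horizontal bars the mean and whiskers the SD. T0 replicate 3 is the lowest T0 library for Nfia, Nfib, Nfix and Zbtb20 and the highest for Nfic, and Nfic is higher in all 3 T0 libraries (71.9 to 96.3) than in any later library (41.5 to 60.2).

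Nfia, the family member most closely tied to the start of astrocyte formation, was present at all times. Its level was 355.5, 425.1 and 235.5 CPM in T0 replicates 1, 2 and 3, and 478.3, 569.7 and 486.9 CPM in the T1 libraries. At T2 it was 434.9, 626.9, 402.4 and 510.6 CPM, and at T3 it was 350.2 and 397.6 CPM. All T1 libraries were above all T0 libraries, whereas the groups overlapped at T2 and T3. The log2 fold changes from T0 of T1, T2 and T3 were 0.59 ± 0.22 (SE), 0.56 ± 0.22 and 0.16 ± 0.27. The quasi-likelihood test of edgeR with Benjamini-Hochberg adjustment over all genes gave adjusted p = 0.079, 0.073 and 0.74, so Nfia did not pass the threshold of 0.05 at any time. Without T0 replicate 3 the T1 change was smaller but passed (0.39 ± 0.11, edgeR adjusted p = 0.02), and the T2 change of 0.36 ± 0.17 did not (edgeR adjusted p = 0.1). At T3 the value without that library was -0.05.

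The direction of Nfia after T1 depended on the unit. FPKM, which scales fragments by transcript length as well as by library, was 65.3, 73.3 and 44.2 at T0 and 72.4, 80.3 and 66.1 at T1. It was 44.6, 83.9, 40.1 and 47.9 at T2, and 44.8 and 32.2 at T3. Of the 4 T2 libraries 3 were thus below T0 replicates 1 and 2. With limma on log2(FPKM + 1) the change at T2 was -0.20 (adjusted p = 0.61) and at T3 it was -0.64 (adjusted p = 0.25), opposite in sign to the counts. The transcript length implied by CPM over FPKM moved from 5324 to 5798 bases at T0 to between 7474 and 12342 bases at T2 and T3. For Nfix it stayed between 2885 and 3410 bases in all libraries, and for Nfib between 10626 and 13941. It varied more for Nfic (3991 to 7956 bases) and for Zbtb20 (745 to 2392 bases). The lowest Zbtb20 values, 745 and 875 bases, were in T2 replicates 3 and 4. The locus given for the FPKM entry of Nfia starts at position 97234824, the start of the neighbouring gene E130114P18Rik, and spans both genes.

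E130114P18Rik is a protein-coding gene on the opposite strand that meets the 5′ end of Nfia head to head, with 4 exonic bases in common. Its level was 28.1, 30.8 and 26.5 CPM at T0, 64.5, 56.4 and 64.0 CPM at T1, 53.4, 53.5, 66.5 and 58.9 CPM at T2 and 47.7 and 38.1 CPM at T3. Every later library was above every T0 library. It rose by a log2 fold change of 1.11 ± 0.12 at T1 (edgeR adjusted p = 0.0013) and 1.05 ± 0.12 at T2 (edgeR adjusted p = 0.00038), while the T3 value was 0.61 ± 0.18 (edgeR adjusted p = 0.11). In the absence of T0 replicate 3 these values were 1.06, 1.0 and 0.56 (edgeR adjusted p = 5.3e-05, 7.6e-05 and 0.069). Since the strand setting of the counting was not given, reads in the shared bases cannot be assigned to either gene with certainty.

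Nfib, which acts with Nfia in gliogenesis and in the formation of forebrain commissures, was lower at T2 than at T0. The T0 libraries had 805.7, 891.5 and 438.3 CPM. The T1 libraries had 503.5, 570.1 and 501.1 CPM, the T2 libraries 438.2, 482.0, 426.0 and 435.5 CPM and the T3 libraries 340.6 and 319.5 CPM. T0 replicates 1 and 2 were above all later libraries, whereas T0 replicate 3 lay within the range of T2. The log2 fold changes of T1, T2 and T3 were -0.44 ± 0.26, -0.66 ± 0.22 and -1.09 ± 0.33. By edgeR only the T2 change passed (adjusted p = 0.038), while T1 and T3 did not (adjusted p = 0.22 and 0.11). The T2 call was lost, with edgeR adjusted p from 0.07 to 0.13, when any T2 library or T0 replicate 1 or 2 was left out. With T0 replicate 3 left out the 3 values were -0.69 ± 0.10, -0.91 ± 0.09 and -1.35 ± 0.12, and all 3 passed (edgeR adjusted p = 0.00044, 2.5e-05 and 0.0088). FPKM gave the same direction, with 75.8, 79.9 and 40.5 at T0 and 30.8 and 22.9 at T3.

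Within the differentiating cells all T2 libraries were below all T1 libraries for Nfib, and both T3 libraries were below all T2 libraries. Neither step passed the threshold. The log2 fold change of Nfib was -0.23 ± 0.08 from T1 to T2 (edgeR adjusted p = 0.32) and -0.44 ± 0.11 from T2 to T3 (edgeR adjusted p = 0.08). Such a fall without overlap was not particular to Nfib. Nfix had it from T1 to T2 (-0.28 ± 0.09, edgeR adjusted p = 0.26) and Nfia from T2 to T3 (-0.4 ± 0.18, edgeR adjusted p = 0.31). The share of all genes without overlap at these steps was not counted.

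Nfic, on average the least abundant NFI gene per length, was lower at T1 and T2 than at T0, with and without T0 replicate 3. In T0 replicate 3 its FPKM of 24.1 was above that of Nfix (22.8). Nfic had 71.9, 83.9 and 96.3 CPM at T0 and 43.0, 44.6 and 45.1 CPM at T1. At T2 it had 42.5, 51.3, 45.8 and 41.5 CPM, and at T3 48.4 and 60.2 CPM. The T0 libraries were all above every later library. Nfic fell by 0.93 ± 0.14 on the log2 scale at T1 (edgeR adjusted p = 0.0035) and by 0.88 ± 0.13 at T2 (edgeR adjusted p = 0.0013). The T3 value of -0.61 ± 0.20 did not pass (edgeR adjusted p = 0.12). Without T0 replicate 3, the highest Nfic library, the changes were -0.82 ± 0.09 and -0.77 ± 0.11 at T1 and T2 and both passed (edgeR adjusted p = 0.00015 and 0.00025), and the T3 value was -0.51 ± 0.16 (edgeR adjusted p = 0.084). In all 15 alternatives at T1 and all 16 at T2 Nfic passed the threshold, with adjusted p of at most 0.032 and 0.020.

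Nfix, the member linked to neural stem cell quiescence, had 169.9, 183.6 and 65.7 CPM at T0, the widest spread of the 4 family members at this time relative to its mean. At T1 the values were 145.1, 148.2 and 140.6 CPM, at T2 112.3, 137.5, 118.0 and 106.2 CPM and at T3 126.7 and 93.6 CPM. All later libraries lay between T0 replicate 3 and the other T0 libraries. The log2 fold changes from T0 of 0.05 ± 0.35, -0.22 ± 0.31 and -0.33 ± 0.45 did not pass (edgeR adjusted p = 0.93, 0.58 and 0.68). Without T0 replicate 3 Nfix fell by 0.29 ± 0.08 at T1 and by 0.56 ± 0.11 at T2 (edgeR adjusted p = 0.012 and 0.0016), with -0.66 ± 0.17 at T3 (edgeR adjusted p = 0.055). The sign at T1 thus turned with this library.

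**Figure D2:**
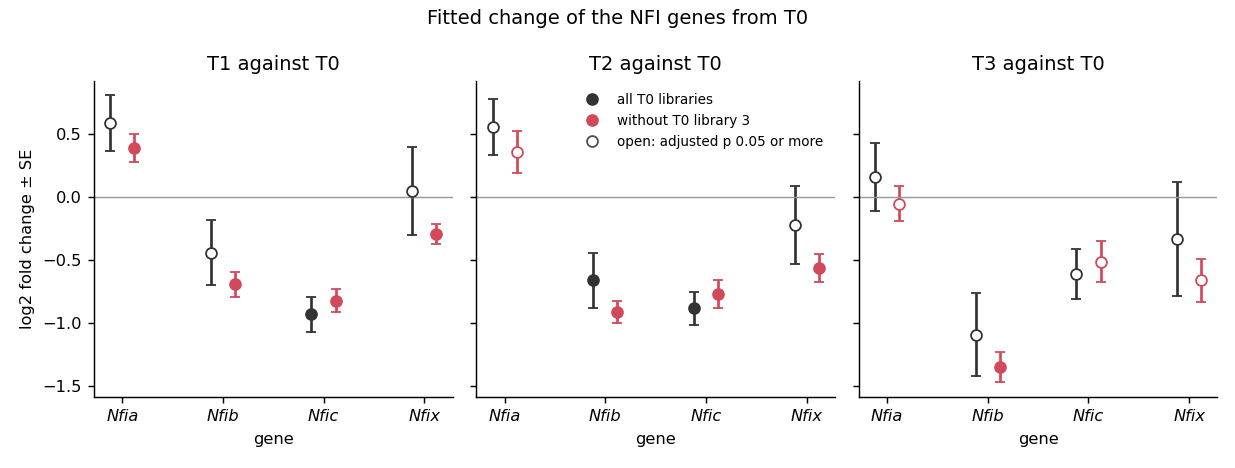
Fitted log2 fold change from T0 (vertical axis, with SE) of the 4 NFI genes (horizontal axis) at T1, T2 and T3, with all T0 libraries in black and without T0 replicate 3 in red; filled points passed an adjusted p of 0.05. Nfic keeps its fall at T1 and T2 in both fits, whereas the values of Nfib and Nfix are lower at each time when T0 replicate 3 is left out.

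By this test 1 of the 4 NFI genes passed at T1, where 31.9% of all 12364 genes tested did, and 2 of the 4 passed at T2, where 43.3% of 12607 did. At T3, where 4.72% of 12721 genes passed, none of the 4 did by edgeR, 2 had an unadjusted p under 0.05 and 1 passed by DESeq2. The family counts were thus near the share of all genes. When T0 replicate 3 was left out 4, 3 and 1 of the 4 passed at T1, T2 and T3, beside 50.1%, 52.1% and 18.4% of all genes. Between T1 and T2, where 0.63% of genes passed, none of the 4 did by edgeR, 2 had an unadjusted p under 0.05 and none passed by DESeq2. With the library number as a replicate block, 1.99% of genes passed between T1 and T2 and again no NFI gene. Between T2 and T3 1.19% of genes passed, no NFI gene did by edgeR, 1 had an unadjusted p under 0.05 and 1 passed by DESeq2.

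The unequal changes of the family members were tested within libraries, where the ratio of 2 genes needs no scaling. The log2 ratio of Nfia to Nfib counts was -1.05 ± 0.14 (SD, n = 3) at T0, -0.04 ± 0.04 (n = 3) at T1 and 0.13 ± 0.21 (n = 4) at T2, and 0.18 ± 0.19 (n = 2) in the T3 libraries. Nfia thus had 0.441 to 0.537 reads per Nfib read at T0, with T0 replicate 3 at the upper end, and 0.945 to 1.30 in the 9 later libraries. The difference of 1.13 between the later libraries and T0 gave p = 0.00909 in a two-sided exact permutation test, the smallest p that 3 against 9 libraries allow, and 0.0182 after adjustment over the 6 pairs of family members. For every pair, this test treats the 9 libraries of T1, T2 and T3 as exchangeable and independent. Same-numbered T1 and T2 libraries deviated together over genes, so its p-values may overstate the replication.

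Of the other 5 pairs, the ratio of Nfia to Nfic rose by 1.34 from 1.98 ± 0.60 at T0 (n = 3) to 3.32 ± 0.34 later (n = 9), and that of Nfib to Nfix fell by 0.60 from 2.42 ± 0.28 to 1.83 ± 0.17. Each had an adjusted p of 0.0182 in the exact permutation test and groups that did not overlap. The ratio of Nfia to Nfix differed by 0.54 (adjusted p = 0.0682, exact permutation test), that of Nfic to Nfix by -0.80 (adjusted p = 0.109, exact permutation test) and that of Nfib to Nfic by 0.21 (adjusted p = 0.527, exact permutation test). With FPKM in place of counts, Nfia to Nfib (0.62) and Nfib to Nfix (-0.69) passed with an adjusted p of 0.0273 each in the exact permutation test, while Nfia to Nfic (0.97, adjusted p = 0.109) no longer did. When any single T0 library was left out, Nfia to Nfib stayed between 1.07 and 1.21 and Nfib to Nfix between -0.68 and -0.44, but 2 against 9 libraries allow no two-sided exact p below 0.0364 and no pair passed after adjustment (lowest 0.0545). The ratio of Nfic to Nfix depended most on T0 replicate 3, with a difference of -0.22 without it and -1.12 without T0 replicate 1.

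Levels were compared between members per length only, by FPKM. At T0 the order of mean FPKM was Nfib (65.4 ± 21.7, SD, n = 3), Nfia (61.0 ± 15.0), Nfix (45.0 ± 19.3), Nfic (18.6 ± 5.85) and Zbtb20 (9.69 ± 5.16), and the libraries of each pair of neighbours in this order overlapped. At T1 Nfia was first (73.0 ± 7.11, n = 3) and above Nfix (47.8 ± 0.673) and Nfib (46.5 ± 4.27), which overlapped each other. Zbtb20 (14.9 ± 4.53) was next and Nfic (8.26 ± 1.03) was last, without overlap between these 2 or with Nfib. The FPKM of Zbtb20 rested on implied lengths of 745 to 2392 bases, beside 30730 bases of merged exons. Its place above Nfic at T1 thus depends on the length used. At T2 and T3 the order Nfia, Nfix, Nfib held, with overlap between neighbours. By counts per kilobase of merged exons Nfib was on average above Nfix at all 4 times, so the order of these 2 depends on the length used. Nfic and Zbtb20 overlapped below them at 7.97 ± 1.96 and 12 ± 5.33 (n = 4) at T2 and at 9.82 ± 1.84 and 9.01 ± 4.44 (n = 2) at T3.

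As a share of the summed FPKM of the family, Nfib made up 34% ± 2.88 (SD, n = 3) at T0, 26.5% ± 0.924 (n = 3) at T1 and 27.2% ± 2.0 (n = 4) at T2, and 24.6% ± 0.344 (n = 2) in the T3 libraries. Its share was between 30.8% and 36.3% in the T0 libraries and at most 28.9% in any later library. Nfia rose to 41.5% ± 1.52 at T1 from 32.3% ± 1.19 at T0 without overlap and was 38.8% ± 6.49 at T2 and 35.2% ± 1.33 at T3. Nfix made up 22.9% ± 4.88 at T0 and 27.3% to 30.9% on average later. By counts per kilobase of merged exons its later share was 16.5% to 18.8%. Nfic made up 5.98%, 8.35% and 18.3% in T0 replicates 1, 2 and 3, so its T0 mean of 10.9% rests on T0 replicate 3.

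**Figure D3:**
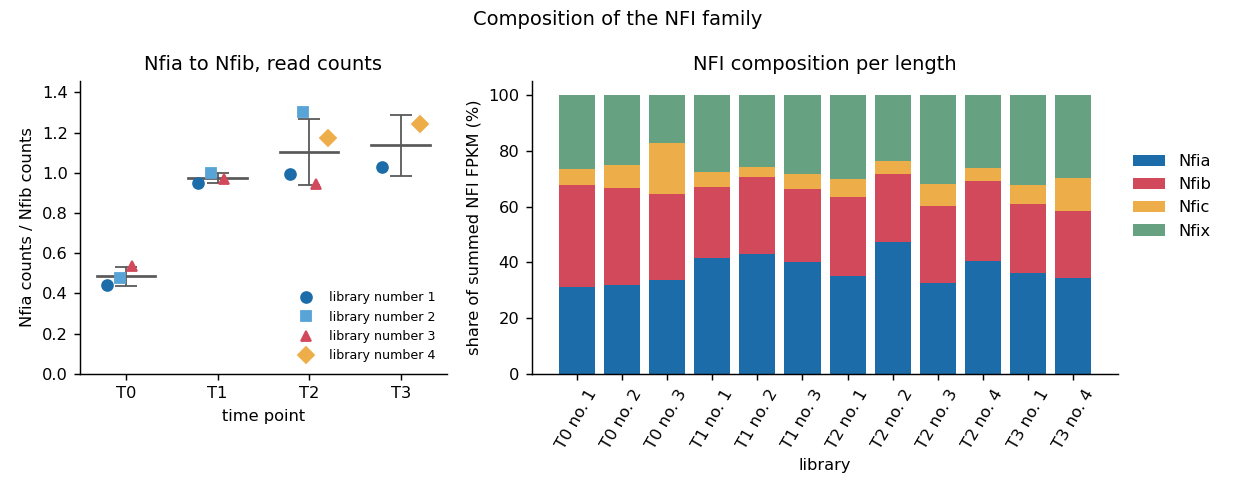
Left, Nfia reads per Nfib read (vertical axis, from 0) in each library by time point, with the mean and SD; right, share of each NFI gene in the summed FPKM of the family (vertical axis, in percent) for each of the 12 libraries. The ratio is 0.441 to 0.537 at T0 and 0.945 to 1.30 later, and the Nfib share falls below its T0 range of 30.8% to 36.3% in every later library.

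Zbtb20 was the least even of the members between libraries of a time point. It had 26.6, 25.6 and 7.12 CPM at T0, from 355, 367 and 101 reads. The T1 libraries had 28.0, 35.9 and 11 CPM, the T2 libraries 16.0, 38.1, 6.92 and 7.07 CPM and the T3 libraries 26.2 and 8.18 CPM. The means of 19.8 ± 11 (SD, n = 3), 25.0 ± 12.7 (n = 3), 17.0 ± 14.7 (n = 4) and 17.2 ± 12.8 CPM (n = 2) thus differed by less than their SDs, and the groups overlapped at all times. The spread followed the library number. The 7 libraries numbered 1 or 2 had 16.0 to 38.1 CPM (median 26.6) and the 5 libraries numbered 3 or 4 had 6.92 to 11 CPM (median 7.12). Within T0, T1, T2 and T3 the mean of the former was 3.67, 2.90, 3.87 and 3.20 times that of the latter. Since Zbtb20 was chosen for this spread, these values are a description without a test.

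The same order was found in FPKM, where the libraries numbered 1 or 2 had 10.9 to 19.8 and those numbered 3 or 4 had 3.97 to 9.68, with a smaller ratio of medians (1.73 against 3.74 in CPM). The separation by number was shared by few genes, as 1.78% of 12952 genes had all libraries numbered 1 or 2 above all libraries numbered 3 or 4. None of the 4 NFI genes did, and 3 of the 35 other genes with a symbol starting with Zbtb did (Zbtb26, Zbtb37 and Zbtb40, named after their values were seen). Reads outside annotated exons moved with the number. They made up 19.8% on average in T0 libraries 1 and 2 against 13.3% in library 3, 19.9% against 17.6% at T1, 22.5% against 19.2% at T2 and, among T3 libraries, 23.1% against 19.8%. Reads that aligned to several places moved the other way (34.3% against 39.0% at T0, for example). The part of these shares in the Zbtb20 values was not tested.

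Reads counted at the Mir568 hairpin, in the last exon of Zbtb20, did not separate by number. The locus had 13, 18 and 8 reads at T0, 22, 30 and 40 at T1, 21, 34, 43 and 32 at T2 and 20 and 24 at T3. Libraries numbered 1 or 2 had 0.975 to 3.15 CPM and those numbered 3 or 4 had 0.564 to 3.91 CPM, and the largest value was in T2 replicate 3, where Zbtb20 itself was lowest. At these counts single libraries are imprecise. The libraries were made from polyadenylated RNA, so these reads are not a measure of the mature miRNA, and they cannot be told apart from reads of the host exon. That exon is taken from GENCODE vM1, whereas the paper names an Illumina iGenomes annotation for its differential expression. Whether the Zbtb20 counts include reads at this locus was not tested.

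**Figure D4:**
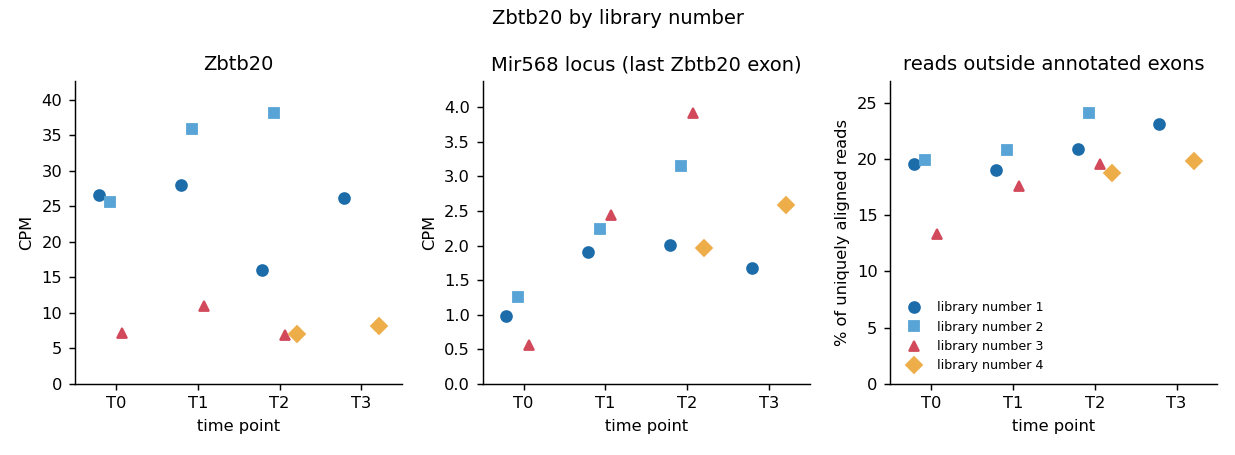
Zbtb20 in CPM, reads at the Mir568 locus in CPM and reads outside annotated exons as a percentage of uniquely aligned reads (vertical axes, all from 0) by time point, with symbols and colours for the library number. Zbtb20 is at 16.0 CPM or above in the libraries numbered 1 or 2 and at 11 or below in those numbered 3 or 4, the Mir568 locus shows no such separation, and the share of reads outside exons is lower for numbers 3 and 4 within every time point.

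The genes whose log2 CPM followed each member most closely over the 12 libraries are given as a description, since libraries of a time point share their medium and T0 replicate 3 weighs on several members. For Nfia they were Twsg1 (Pearson r = 0.938), Slc38a1 (0.937) and Iqsec1 (0.936). For Nfib they were Notch3, a Notch receptor (0.967), the POU factor Pou3f4 (0.963) and the zinc finger factor Zic1 (0.955). For Nfic they were the kinase gene Rps6ka6 (0.985), E2f1, a regulator of entry into S phase (0.982), and Crybg3 (0.982). For Nfix they were Zfp192 (0.977), Fyco1 (0.961) and Zfp661 (0.958). For Zbtb20 they were Zbed6 (0.993), the deubiquitinase gene Usp9x (0.973) and the acetyltransferase gene Crebbp (0.968). Each of these 3 separated by library number without overlap, which their choice by likeness to Zbtb20 makes likely in advance. Leaving out T0 replicate 3, the r of the 15 pairs was between 0.866 and 0.992.

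The list of reported NFI targets was chosen with earlier results of these data known and held 16 genes, of which 12 or 13 passed the low-count filter. At T1 3 were higher and 2 lower than at T0 of 12 tested (median log2 fold change 0.34, beside -0.0082 over all genes), and at T2 2 were higher and 2 lower of 13 (median 0.22, beside 0.0023). The share called was 41.7% and 30.8%, beside 31.9% and 43.3% of all genes. The 5 calls at T1 became 1 without T1 replicate 1 and 2 without either other T1 library or T0 replicate 1 or 2, and the 4 at T2 became 2 without any single T2 library. Sox9, a partner of Nfia in gliogenesis, rose by a log2 fold change of 1.18 ± 0.37 at T1 and 1.08 ± 0.32 at T2 (edgeR adjusted p = 0.047 and 0.027), and by 0.84 ± 0.10 and 0.73 ± 0.11 without T0 replicate 3 (edgeR adjusted p = 0.00017 and 0.00038). Efnb1 rose at both times, and Cdh2 rose at T1. Ezh2, the Polycomb methyltransferase that NFI proteins are known to repress, fell by 1.35 ± 0.16 at T1 and by 1.59 ± 0.15 at T2 (edgeR adjusted p = 0.0017 and 0.00014), from 177.4, 186.2 and 258.4 CPM at T0 to 61.2 to 72.0 CPM at T2. Its values without T0 replicate 3 were -1.16 and -1.40 (edgeR adjusted p = 5.7e-06 and 2.4e-06). Bbx fell at both times. The calls of Efnb1, Cdh2 and Bbx at these times held without T0 replicate 3. None of the 13 passed at T3 by edgeR, where 4 had an unadjusted p under 0.05 and 2 passed by DESeq2, and the median was -0.48.

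Several astrocyte targets of NFI turned on T0 replicate 3. Fabp7, the radial glial fatty acid binding protein whose promoter site is shown above, had 750.8, 811.4 and 2256.5 CPM in T0 replicates 1, 2 and 3 and 1280.0 to 2294.4 CPM in the later libraries. Its log2 fold changes at T1, T2 and T3 were 0.66 ± 0.43, 0.52 ± 0.39 and 0.54 ± 0.51 (edgeR adjusted p = 0.27, 0.3 and 0.54), and without T0 replicate 3 they were 1.37 ± 0.14, 1.23 ± 0.19 and 1.24 ± 0.14 (edgeR adjusted p = 8.3e-05, 0.00043 and 0.013). Gfap had log2 fold changes of -0.95 ± 1.22, 0.35 ± 1.05 and -1.77 ± 1.61 at the same times, and without that library -1.52 ± 0.20, -0.23 ± 0.30 and -2.35 ± 0.19 (edgeR adjusted p = 0.00033, 0.54 and 0.007). From T2 to T3 Gfap and the Wnt inhibitor Apcdd1 were the 2 targets that fell (log2 fold change -2.12 and -1.99, edgeR adjusted p = 0.049 and 0.016), where 1.19% of all genes passed. These 2 calls became 1 without T2 replicate 1, 2 or 3, without T3 replicate 4 or with the replicate block, and 0 without T2 replicate 4, with FPKM or in a fit of all libraries. Slc1a3, the glial glutamate transporter, had -0.26 ± 0.22 at T2 with all libraries and -0.52 ± 0.09 without T0 replicate 3 (edgeR adjusted p = 0.36 and 0.0011). S100b, a calcium-binding protein of astrocytes, had 0.68 ± 0.43 and 0.27 ± 0.21 at T2 with and without it (edgeR adjusted p = 0.23 and 0.3). With that library left out, 12 of 13 targets passed at T1 (6 higher, 6 lower), beside 50.1% of all genes. At T2 9 of 13 passed (4 higher, 5 lower), beside 52.1%, and 8 of 13 did so at T3 (2 higher, 6 lower), beside 18.4%. The list medians were then -0.10, -0.15 and -0.53, so those at T1 and T2 turned in sign. With the replicate block, where 1.99% of all genes passed, 3 targets passed between T1 and T2, in place of none (edgeR, with 4 at an unadjusted p under 0.05 and 1 by DESeq2): Gfap was higher and Apcdd1 and Hes1 were lower at T2.

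Among 31 regulators of gliogenesis other than the members, 6 rose and 5 fell at T1 and 8 rose and 4 fell at T2 of 28 tested (medians 0.21 and 0.29), or 39.3% and 42.9% beside 31.9% and 43.3% of all genes. The 11 calls at T1 became 2, 3 and 6 without T1 replicates 1, 2 and 3 and 7 without T0 replicate 1, and the 12 at T2 became 7 without T2 replicate 2 or 4. The cytokine receptor subunit Il6st (0.76 ± 0.18 at T2), the kinase Jak1, the BMP effector Smad1 and the transcription factors Lhx2, Nr2f2 and Sox9 rose at both times. The Notch target Hes5 (-1.81 ± 0.30 at T2, edgeR adjusted p = 0.0019), the BMP target Id3, the BMP effector Smad5 and the cytokine receptor Lifr (-0.99 ± 0.22, edgeR adjusted p = 0.0074) fell at both times. All of these genes passed in the same direction at both times without T0 replicate 3, with 0.57 for Il6st, -2.10 for Hes5 and -1.20 for Lifr at T2 (edgeR adjusted p = 0.0006, 8.5e-06 and 0.00013). The stress-induced factor Atf3 fell at T1 and rose at T2 (log2 fold change -1.01 and 1.63) at no more than 72 reads per library. None of 29 passed at T3 by edgeR (8 at an unadjusted p under 0.05, 6 by DESeq2). Olig1 rose at T2 (0.34 ± 0.11, edgeR adjusted p = 0.043), while the value of Olig2 was 0.14 ± 0.14 (edgeR adjusted p = 0.47). Both passed when T0 replicate 3 was left out (0.34 ± 0.11 and 0.31 ± 0.09, edgeR adjusted p = 0.023 and 0.02). With T0 replicate 3 left out the counts were 10 higher and 10 lower at T1 and 10 higher and 8 lower at T2 of 29, or 69.0% and 62.1% beside 50.1% and 52.1% of all genes, and 2 higher and 9 lower at T3, or 37.9% beside 18.4%.

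The list of genes reported to be repressed by Zbtb20, most of them cortical neuron factors, held 15 genes. Of 11 tested, Bcl11b and Cux2 rose at T1 and T2 (2.31 ± 0.19 and 2.19 ± 0.24 at T2, edgeR adjusted p = 0.0001 and 0.00025), Cux1 rose at T2, and Mef2c and Sox5 fell at both times (-1.0 ± 0.15 and -0.93 ± 0.12 at T2, edgeR adjusted p = 0.0011 and 0.0007). This made 36.4% called at T1 and 45.5% at T2, beside 31.9% and 43.3% of all genes (medians 0.16 and 0.24). Bcl11b, Cux2, Mef2c and Sox5 also passed at both times without T0 replicate 3 (2.20, 1.95, -0.96 and -1.0 at T2, edgeR adjusted p = 1.1e-05, 7.7e-06, 0.00033 and 5.3e-05). At T3 Bcl11b and Cux2 rose, of 12 tested (16.7%, beside 4.72% of all genes), and neither call was kept without T0 replicate 1 or 2 or either T3 library. The counts without T0 replicate 3 were 7 of 11 at T1 (4 higher, 3 lower), 7 of 12 at T2 (4 higher, 3 lower) and, for T3, 5 of 12 (3 higher, 2 lower), with medians of -0.12, 0.10 and 0.02. Pou3f2 had a log2 fold change of 0.24 ± 0.35 at T2 (edgeR adjusted p = 0.6) and -0.13 ± 0.14 without T0 replicate 3 (edgeR adjusted p = 0.48), and Tbr1, a factor of deep cortical layers, had at most 20 reads in any library. Of 37 other genes with a symbol starting with Zbtb, 35 were tested, of which 5 rose and 2 fell at T1 (20.0%) and 3 rose and 5 fell at T2 (22.9%), beside 31.9% and 43.3% of all genes (medians 0.23 and 0.19). With T0 replicate 3 left out 10 rose and 3 fell at T1 (37.1%) and 6 rose and 5 fell at T2 (31.4%), beside 50.1% and 52.1%. The largest change called at T2 with all libraries was that of Zbtb7b (-1.15 ± 0.15, edgeR adjusted p = 0.00066). Without T0 replicate 3 Zbtb7b had -1.25 ± 0.12 (edgeR adjusted p = 3e-05), and the change of Zbtb7c was larger (1.5 ± 0.32, edgeR adjusted p = 0.0034).

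Markers of the cell types that such cultures can hold are given beside these values. The summed level of 13 neuronal markers was 902.9 to 973.5 CPM at T0, 2072.3 to 2625.1 CPM at T1, 2050.8 to 2611.2 CPM at T2 and 1712.0 to 2767.7 CPM at T3. Most of this sum came from Mtap2, an older symbol of Map2, with means of 899.9, 1902.9, 1772.9 and 1627.3 CPM at T0, T1, T2 and T3. Of the 13 markers 3 had at most 3 reads in any library, and Rbfox3 and Snap25 had at most 34. Dcx, a microtubule protein of young neurons, rose by 6.06 ± 0.47 at T2 (edgeR adjusted p = 8.2e-05) and by 5.64 ± 0.19 without T0 replicate 3 (edgeR adjusted p = 2.2e-07). The marker counts at T2 stand beside 43.3% of all genes called, or 52.1% when T0 replicate 3 was left out. Of 9 neuronal markers tested at T2, 7 rose (77.8%), and 7 of 8 did without that library. Of 19 astrocyte markers tested at T2, 3 rose and 7 fell (52.6%), and the counts without it were 4 and 9 (68.4%). Of 10 oligodendrocyte markers 4 rose at T2 (40.0%), and 6 of 12 rose and 2 fell without it (66.7%). Among the 4, Pdgfra rose by 3.02 ± 0.58 and Gpr17 by 3.03 ± 1.05 (edgeR adjusted p = 0.0039 and 0.045). Without T0 replicate 3 these values were 2.52 and 2.45 (edgeR adjusted p = 1.1e-06 and 3.7e-05). The summed level of the 14 markers was 3886.7 to 4069.6 CPM at T0, 5016.2 to 5972.8 CPM at T2 and 6819.1 to 7029.7 CPM at T3. Olig1 alone had means of 2255.0, 2813.7 and 3801.4 CPM at these times. Sox10, which defines that lineage, had 10 to 45 reads at T0 and at most 8 later, and it passed the low-count filter at T2 only without T0 replicate 3, where it fell by 2.68 ± 0.38 (edgeR adjusted p = 0.00028). Of 8 progenitor markers 1 rose and 2 fell at T2, with 2 higher and 2 lower without that library, and Nes (-0.20 ± 0.25) and Sox2 (0.17 ± 0.27) did not pass (edgeR adjusted p = 0.53 and 0.64). Without it their signs turned (0.21 ± 0.10 and -0.13 ± 0.12, edgeR adjusted p = 0.12 and 0.37). Endothelial and mesenchymal markers summed to at most 3.48 and 1.95 CPM in any library. The part of the changing cell mixture in the NFI and Zbtb20 values was not tested.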

How the data were processed

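Total RNA of 12 cultures was extracted and polyadenylated RNA was sequenced (TruSeq kit v2, HiScanSQ). According to the submitters' processing notes and the methods, reads were aligned to mm9 with TopHat2 2.0.6 and Bowtie 0.12.7.0 and counted with HTSeq 0.6.0. The authors deposited unnormalized read counts per gene for each library and a table of FPKM per gene and library (fragments scaled by transcript length and by library). FPKM columns were matched to libraries by the number in their names, and that of T3 replicate 4 also carries a 2 whose meaning is not given, which does not bear on the counts. The tool behind the FPKM values and the strand setting are not given in the sources used here. The 5 entries that name no gene entered neither library sizes nor tests, and reads that aligned to several places were not counted, so genes with near-identical copies are uncertain.

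Library sizes were scaled by the trimmed mean of M-values, low genes were removed with filterByExpr, and pairs of time points were each fitted alone by the quasi-likelihood method of edgeR 4.0.16 in R 4.3.3 (Benjamini-Hochberg over all genes, threshold 0.05). DESeq2 1.42.0 and limma 3.58.1 on log2(FPKM + 1) or log2(FPKM + 0.1), for genes with a mean FPKM over 1, were alternatives, besides other filters and size factors, a fit of all libraries and leaving out each library. The fits were tested on simulated data. Ratios of NFI genes were compared by a two-sided exact permutation test. Correlations used log2 CPM with a prior count of 2 over 12952 genes. Exons were taken from GENCODE vM1 and promoters and the miRNA from RefSeq.

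Named genes were the 5 members, up to 4 called genes per list with the largest change at T2, a fixed set of marker genes, the 3 genes most like each member and genes overlapping a member. Other genes named in the counts of a list are those past the threshold. The members and lists were chosen with earlier results of these data known. Same-numbered libraries of T1 and T2 deviated together over genes (r = 0.199, 0.341 and 0.166 for numbers 1, 2 and 3), so the number was taken to pair these 2 groups, which rests on the data and not on the labels. Differently numbered T1 and T2 libraries had r of -0.309 to 0.0694, except T1 replicate 3 with T2 replicate 4. The latter pair had r = 0.37, above every same-numbered pair, so the pairing by number is uncertain. 3′UTR variants and alignments were not analysed here.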

Additional observations from a re-analysis of the deposited data

Results flagged for a closer look

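The 4 T2 libraries were searched for a library far from the others in the 5 members and the other named genes, 47 genes in all. None of the members was flagged. Msi1, an RNA-binding protein of neural progenitors, had 41.3, 48.6, 48.6 and 49.3 CPM, and the gap below the others took up 0.91 of the range. Tubb3, the neuronal tubulin, had 120.2, 122.0, 125.6 and 171.9 CPM, with the gap above the others at 0.896 of the range. Both exceed Dixon's 95% critical value for 4 libraries, and chance alone flags about 1 in 20 groups.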

How the results depend on the processing

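The count of NFI genes called at T1 (1) was 2 with DESeq2 and in a fit of all 12 libraries and 4 with libraries numbered 1 and 2 alone, and at T2 (2) it was 4 with these libraries alone. At T3 (0 against T0) it was 1 with DESeq2 and 2 in a fit of all libraries, and from T2 to T3 (0) it was 1 with DESeq2. Leaving out single libraries gave 1 to 4 at T1, 1 to 3 at T2 and 0 to 1 at T3. With the replicate block the count was 1 at T2 and 2 at T3 (in a fit of all libraries), and other NFI counts did not change. In the comparisons with T0 the numbers did not meet the rule for pairing, as the r of same-numbered libraries was -0.018, 0.121 and 0.066 with T1 and -0.064, 0.016 and -0.152 with T2. T0 and T3 share number 1 alone (r = 0.404, beside 0.411 for T0 replicate 2 with T3 replicate 1).

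Directions that reversed were those of small or uncertain values. For Nfia they were T2 against T0 (-0.20 with FPKM at either pseudocount), T3 against T0 (-0.64 and -0.65 with FPKM, -0.05 to 0.35 without single libraries, the lowest without T0 replicate 3) and T2 against T1 (-0.18 to 0.04 without single libraries, above 0 without T1 replicate 2, T2 replicate 1 or T2 replicate 3, and 0.03 with libraries numbered 1 and 2 alone). For Nfic it was T2 against T1 (-0.07 and -0.08 with FPKM, -0.02 without T2 replicate 2). For Nfix they were T1 against T0 (-0.29 to 0.29 without single libraries, the lowest without T0 replicate 3, and -0.27 with libraries numbered 1 and 2 alone), T2 against T0 (-0.56 to 0.02, the highest without T0 replicate 2) and T3 against T2 (-0.33 to 0.08, the highest without T3 replicate 4). The cause was not tested.

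Of the ratios, Nfia to Nfic did not pass with FPKM (0.97), Nfia to Nfix reversed (-0.07) with FPKM, and Nfic to Nfix passed without the T3 libraries (-0.92). Leaving out single T0 libraries gave 1.07 to 1.21 for Nfia to Nfib, 1.00 to 1.52 for Nfia to Nfic, -0.68 to -0.44 for Nfib to Nfix, -0.21 to 0.44 for Nfib to Nfic, 0.38 to 0.77 for Nfia to Nfix and -1.12 to -0.22 for Nfic to Nfix. With counts per kilobase of merged exons in place of FPKM, the shares at T0, T1, T2 and T3 were 28.1%, 43.1%, 45.8% and 43.0% for Nfia, 42.6%, 32.4%, 30.6% and 27.8% for Nfib and 16.5%, 18.2%, 16.5% and 18.8% for Nfix, and 6.27% at T1 for Nfic, so Nfib rather than Nfix followed Nfia at every later time.

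Genes of the lists called numbered 41 at T1 (27 with FPKM at either pseudocount, 91 with libraries numbered 1 and 2 alone, 19 to 78 without single libraries) and 50 at T2 (81 with libraries numbered 1 and 2 alone). From T1 to T2 they numbered 2 (13 with DESeq2, 5 without a filter, 0 in a fit of all libraries and with FPKM, 10 with the replicate block, 0 to 3 without single libraries). At T3 they numbered 6 (30 with DESeq2, 17 without a filter, 44 in a fit of all libraries, 41 with the replicate block in it, 3 with FPKM, 0 to 43 without single libraries). From T2 to T3 they numbered 4 (13 with DESeq2, 10 without a filter, 2 with at least 10 counts in every library, 0 in a fit of all libraries and with FPKM, 1 with the replicate block, 0 to 19 without single libraries). Where a T3 library was left out, the lone sample was assumed to vary like the other group.

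At 101 reads or fewer Zbtb20 is imprecise in 3 libraries, and the 2 T3 libraries limit every comparison with that time.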
